A study of Macaca mulatta with 17 samples.

Results

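A set of 44 genes of skeletal muscle was followed through the developing uterus of rhesus macaque fetuses: the proteins of the sarcomere in their fast, slow and developmental forms, the proteins that move calcium and supply energy to the fibre, and the transcription factors that make a cell a muscle cell. They were taken by name alone. Each gene was read from the array probe whose annotation carried its symbol or, for MYLPF and MYOT, an older or similar name, and where a gene had several probes the one with the highest mean signal over all arrays was used. All 44 of 44 genes had a probe (45 probes, since TTN had 2), out of 17184 named genes and 20217 probes on the array.

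A skeletal muscle fibre contracts when calcium released from the sarcoplasmic reticulum lets myosin heads pull on actin filaments inside repeating units, the sarcomeres. Fast and slow fibres build the sarcomere from different genes for the myosin heavy and light chains and for the troponins, and fibres that are still forming use an embryonic and a perinatal myosin that later give way to the adult ones. The program is switched on in myoblasts by MYOD1, MYF5, MYOG and MYF6. The wall of the uterus contracts with smooth muscle, which has an actin and a myosin heavy chain of its own.

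The 17 arrays came from 17 female fetuses in 4 groups. There were 5 fetuses from dams that received vehicle and 5 from dams fed BPA, a component of polycarbonate plastic with estrogenic activity, at 400 µg/kg of body weight daily in fruit from gestational day (GD) 50, and these were delivered by cesarean section at GD100. The other 4 control fetuses and 3 BPA-exposed fetuses came from dams treated in the same way from GD100 and were born vaginally at GD165 (165 to 168 days). RNA was taken from a lengthwise piece of the uterus that ran from fundus to cervix. Age, dosing window and mode of delivery changed together between the GD100 and GD165 groups and cannot be told apart. The animals are listed below in the order of their replicate numbers, which were 1 to 5 in both GD100 groups, 1, 3, 5 and 6 in the GD165 controls and 3, 4 and 5 in the exposed GD165 group.

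A level is the log2 fluorescence of a probe after scaling each array to the same 75th percentile, so that a difference of 1 is a factor of 2 and levels can be compared between animals for 1 probe but not between probes. The age effect is the difference of the mean levels, GD165 minus GD100, with its standard error (SE) from limma. Between 83.75% and 89.01% of the spots on an array were well above background. Markers were read for the tissue label: 17 of 17 smooth muscle genes were well above background on every array, and of 9 uterine genes 6 were. PGR, the progesterone receptor, was well above background on none (0). These counts alone do not settle the tissue. Because a piece of tissue was measured, fewer cells of a type and less RNA in each of them cannot be told apart. The arrays lay on 6 slides, here lettered A to F, and slide and scan time coincided. Slide D held a single array, GD165 control 5, so that nothing could be compared within it.

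The myosin heavy chains are encoded by closely related genes, so the probe stretches that separate them are shown first. Each probe has 60 bases, and 30 of them are printed as the array design gives them, 5′ to 3′. Capitals mark the longest run that the MYH1 probe has in common with that of MYH4, another fast myosin that is not among the 44 genes, and, in MYH2, MYH3 and MYH7, the polyadenylation signal AATAAA near the end of the message.
MYH1: tgaCCAAAGAAATGCACAAAATGTGAAaat
MYH4: tggCCAAAGAAATGCACAAAATGTGAAgtc
MYH2: tgttgcaaaggaAATAAAgcatagggtagt
MYH3: tccttttcacatgcAATAAActttgcttta
MYH7: gggaggaagcagAATAAAgcaattttcctt
MYH8: agaggttcacacaaaaatcagtgcagagta
The stretches are bases 10 to 39 of the MYH1 and MYH4 probes, 29 to 58 of MYH2 and MYH7, 31 to 60 of MYH3 and 1 to 30 of MYH8. The MYH1 and MYH4 probes had 24 bases in a row in common, whereas the longest run common to any other pair was 4 to 9 bases. A probe could therefore read MYH1 and MYH4 messages in part together, and values of MYH1 are uncertain to that extent. AATAAA stood on the printed strand of 14 of the 44 gene probes (31.8%) and of 12.8% of all probes, and its reverse complement in 0 of the 44 and in 4.67% of all probes. A match describes the letters of the probe and is not a measured end of a transcript.

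Between GD100 and GD165 control fetuses the skeletal muscle genes were mostly higher at the later age. There were 9 of 44 that rose (6.32% of all probes did), which were MYH1, MYH2, MYH8, TNNT3, ACTN3, TNNC1, ACTA1, ACTN2 and SLN, and 1, TCAP, fell (5.2% of all probes), where a gene passed if its limma p, adjusted for all 20217 probes by Benjamini-Hochberg, was under 0.01. The log2 fold change was above 0 in 35 of 44 genes with a median of 1.05, whereas the median of all probes was 0.00 and 50.5% of them were above 0. In all, 17 genes were higher in every GD165 control than in every GD100 control (9.51% of all probes) and 1 was lower (9.9%).

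The exposed fetuses, which form a comparison of the ages with no array in common with that of the controls, had 4 genes that rose (4.82% of all probes) and 2 that fell (4.86%). MYH1, MYH2, TNNC1 and ACTN2 rose, and MYBPC2 and TCAP fell. The p values of both comparisons share an estimate of the spread from all groups. The median log2 fold change was 0.76, with 34 of 44 genes above 0, against −0.05 and 44.7% for all probes. In this comparison 8 genes were higher in every exposed GD165 fetus than in every exposed GD100 fetus (11.7% of all probes) and 5 were lower (15.4%). By value the 7 GD165 animals of either treatment lay above all 10 GD100 animals in 5 genes (11.4% of the genes and 4.78% of all probes), which were MYH2, TNNT3, TNNC1, ACTN2 and MYH1, and below them in TCAP (4.7% of all probes). For MYH1 this order was not measured, since its probe was at background in all 10 GD100 animals and in 1 exposed GD165 fetus.

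The count in controls depended on single animals. Leaving out 1 animal at a time gave between 4 and 13 genes past the threshold in place of 10. The 13 came without exposed GD165 fetus 5, which is outside this comparison but enters the estimate of the spread. It gave 6, 6, 5, 5 and 4 without GD100 controls 1 to 5, and 5, 5 and 4 without GD165 controls 1, 5 and 6. Calls over all probes changed as well, from 2328 to 1881, 2048, 1781, 1784 and 1921 without GD100 controls 1 to 5. Without GD165 controls 1, 5 and 6 they were 1701, 2271 and 1512, and without exposed GD165 fetus 5 they were 2350. With the slide as a term of the fit 2 genes passed in controls (MYH2 and TNNC1) and 3 in exposed fetuses (TNNC1 and CAV3 higher, MYBPC2 lower). In that fit 1233 of all 20217 probes passed in controls and 512 in exposed fetuses, against 2328 and 1956 without the slide. Of the calls in controls, those of MYH2 and TNNC1 were kept under all 32 alternatives, 17 of which left out 1 animal. The 32 include a looser threshold of 0.05, at which no call could be lost. The mean over probes changed no level of these genes, since TTN alone had 2 probes. An animal left out of the other treatment acted only through the estimate of the spread. That of ACTN2 was lost under 1 alternative, MYH1 under 2, ACTN3 under 8, SLN under 9, TNNT3 under 11, MYH8 under 12, and ACTA1 and TCAP under 15 each. In exposed fetuses TNNC1 and MYBPC2 were kept under all 32, and MYH2 was lost under 1, MYH1 under 3, ACTN2 under 4 and TCAP under 8.

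**Figure D1:**
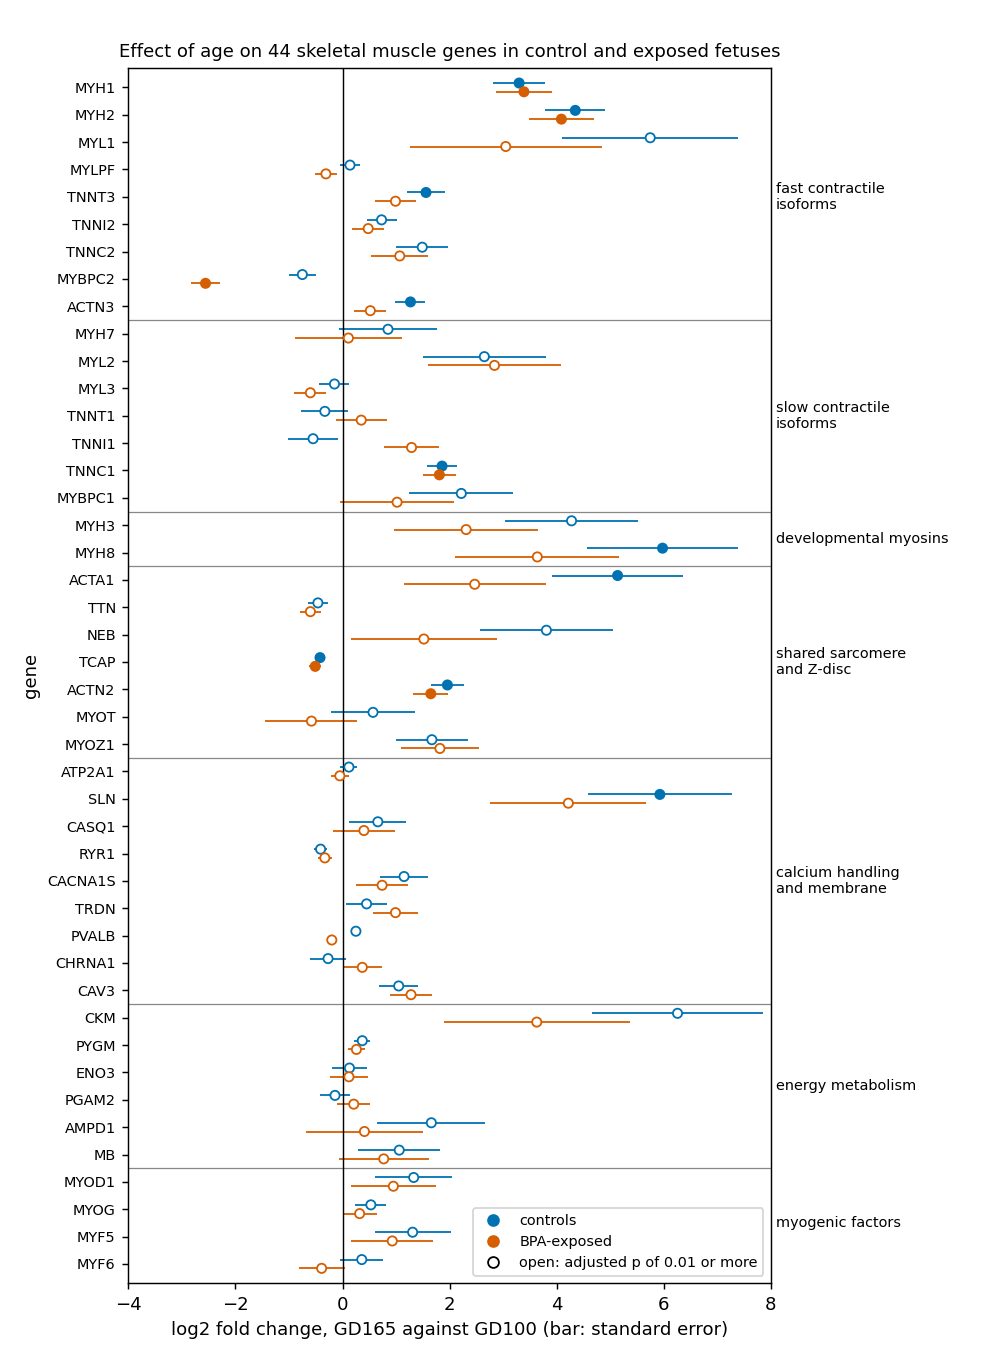
Log2 fold change from GD100 to GD165 of each of the 44 genes in controls (4 against 5 fetuses) and in BPA-exposed fetuses (3 against 5), with standard errors from limma; filled points have an adjusted p under 0.01. Most points lie right of 0, and the errors of MYH3, MYH8, CKM, SLN, MYL1, ACTA1 and NEB are wider than those of MYH2, MYH1, TNNC1 and ACTN2.

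The spread between animals of a group was wide for these genes, more so at GD165. The median standard deviation of the 44 genes was 0.36 in GD100 controls and 0.40 in exposed GD100 fetuses, and 0.89 and 0.91 in the GD165 groups, where that of all probes was 0.24 and 0.22. A standard deviation above 1 was found for 20 genes (45.5%) in GD165 controls, against 3.61% of all probes, and for 21 genes (47.7%) in exposed GD165 fetuses, against 3.03%. The highest levels came from GD165 control 5 and exposed GD165 fetus 5. These were the 2 highest of 17 animals in 28 of 44 genes (63.6%, and 1.45% of all probes), and the 44 probes were all well above background in both. GD165 control 5 was the highest of all animals in 23 genes (7.37% of all probes) and exposed GD165 fetus 5 in 11 (6.07%). Among exposed GD100 fetuses replicate 1 was the highest in 21 of 44 genes (27.1% of all probes).

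**Figure D2:**
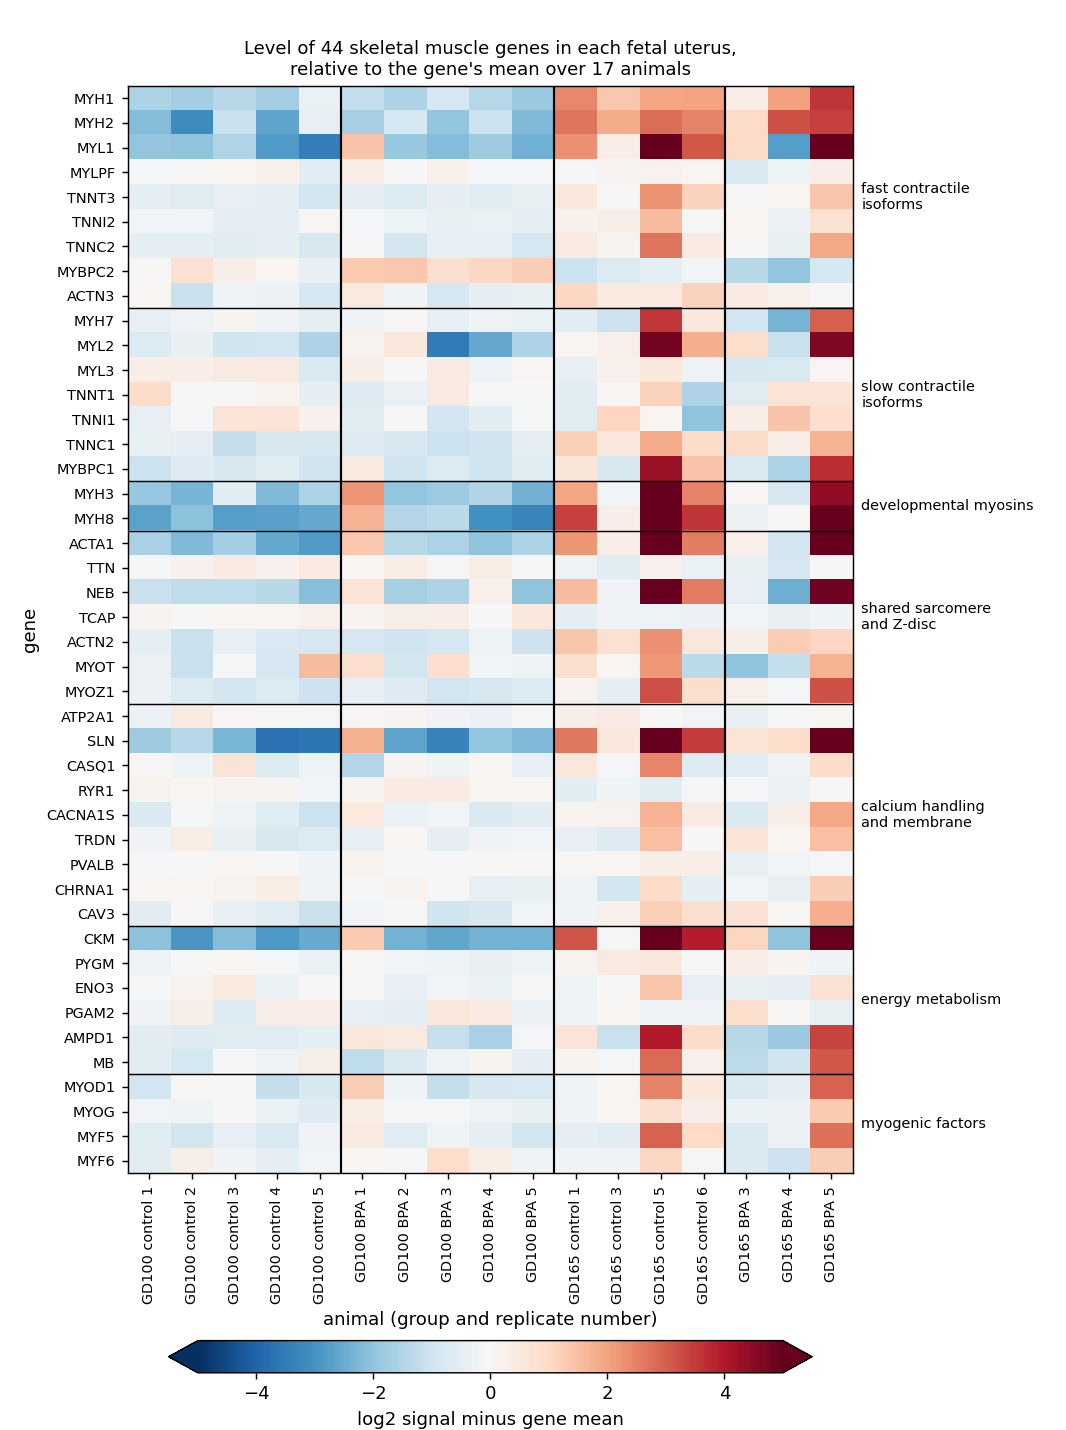
Level of each of the 44 genes in each of the 17 fetuses, as log2 level minus the mean of that gene over all fetuses, with colours limited at 5 above and 5 below the mean. The columns of GD165 control 5 and exposed GD165 fetus 5 are the most filled, and among the GD100 fetuses the exposed fetus 1 stands out.

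The score of an animal is the mean over the genes of its log2 level minus the mean of that gene over all animals. For all 44 genes it was −0.59, −0.59, −0.45, −0.75 and −0.75 in the GD100 controls and 0.18, −0.49, −0.64, −0.62 and −0.69 in the exposed GD100 fetuses. The GD165 scores were 0.55, 0.06, 2.41 and 0.72 in controls and −0.14, −0.35 and 2.13 in exposed fetuses. Every GD165 control was above every GD100 control, while 2 of the 3 exposed GD165 fetuses lay below exposed GD100 fetus 1. The group means were −0.63 ± 0.13 and −0.45 ± 0.36 at GD100 (SD, n = 5 each), 0.94 ± 1.02 in GD165 controls (n = 4) and 0.55 ± 1.38 in exposed GD165 fetuses (n = 3).

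The classes of isoforms differed in how the animals were arranged. The fast score was −0.75, −0.94, −0.59, −0.95 and −0.85 in GD100 controls and 0.94, 0.43, 2.15 and 1.14 in GD165 controls, so that all 4 later controls were higher by more than the range of the earlier ones. The slow score was −0.24, −0.22, −0.25, −0.18 and −0.70 in GD100 controls and −0.02, 0.04, 2.32 and 0.14 in GD165 controls. It stood far above the others in GD165 control 5, while the other 3 lay above all GD100 controls by a small margin. The developmental score, from MYH3 and MYH8, was −2.29, −2.17, −1.67, −2.45 and −2.06 in GD100 controls and 2.68, 0.09, 6.22 and 3.02 in GD165 controls. It had the widest range of the classes, and all 4 later controls were again higher.

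In exposed fetuses the fast score was 0.02, −0.55, −0.68, −0.57 and −0.82 at GD100 and 0.08, 0.00 and 1.94 at GD165. The slow score was −0.15, −0.23, −0.81, −0.80 and −0.41 at GD100 and −0.13, −0.47 and 2.09 at GD165. The developmental score was 1.98, −1.71, −1.59, −2.25 and −2.85 at GD100 and −0.13, −0.37 and 5.57 at GD165. For each of these classes exposed GD165 fetus 5 was the highest, and exposed GD100 fetus 1 passed the other exposed GD165 fetuses in the developmental score. For the fast class and, in controls, the slow class the arrangement belongs to scores that weigh each gene equally. A score from the summed linear signal lets the brightest probes decide. The brightest were MYLPF in the fast class (15.73 to 16.83 over all animals) and TNNT1 in the slow class (13.5 to 16.18). Each of these sums thus follows 1 probe in large part. The summed score changed by 0.43 in controls and −0.05 in exposed fetuses for the fast class and by −0.18 in controls for the slow class. The equal-weight scores changed there by 1.98, 1.19 and 0.94. The summed developmental score kept the ages of the controls apart, with 7.56 to 9.06 at GD100 and 9.75 to 15.9 at GD165. In it exposed GD100 fetus 1 (11.98) stayed above exposed GD165 fetuses 3 (9.82) and 4 (9.19).

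**Figure D3:**
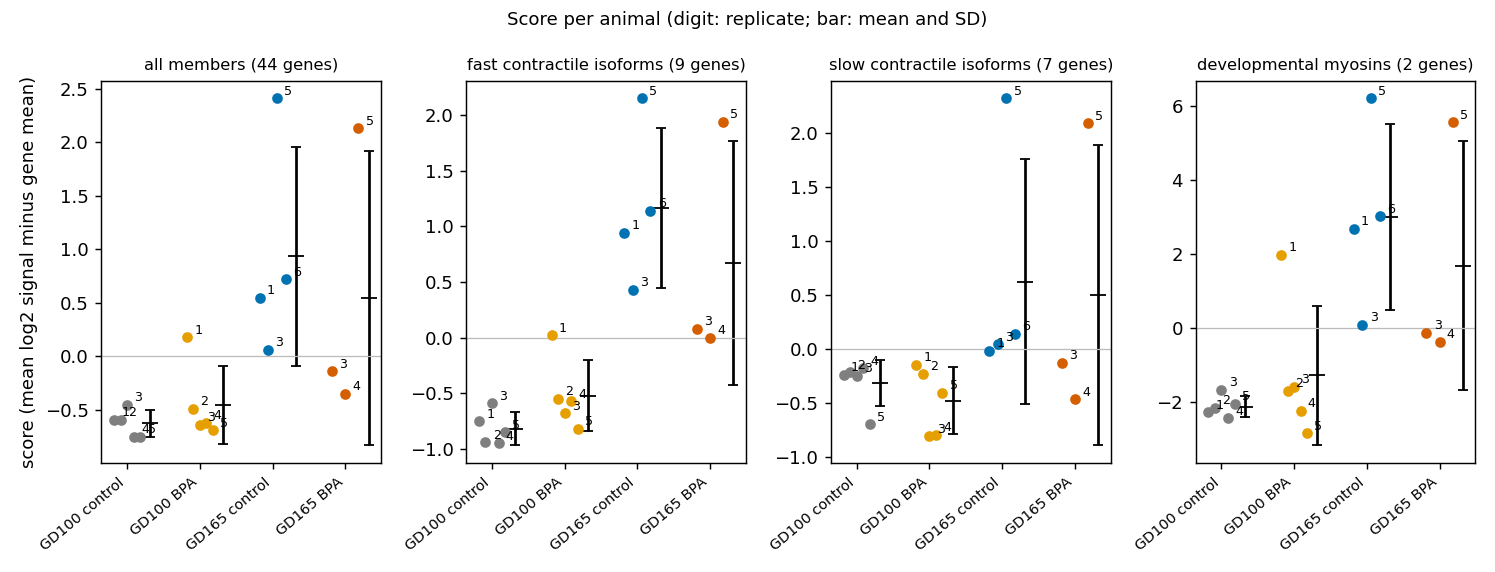
Score of each fetus (mean log2 level minus gene mean) for all 44 genes, 9 fast, 7 slow and 2 developmental isoforms, by group; the digit is the replicate number and the bars give the group mean and standard deviation. Replicates 5 of both GD165 groups lie at the top of every panel, and exposed GD100 fetus 1 is the highest of the GD100 fetuses.

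Of the 2 developmental myosins 1 rose in controls and 0 in exposed fetuses. MYH3, the embryonic heavy chain, was at 7.67, 7.27, 9.0, 7.38 and 8.01 in GD100 controls and at 11.80, 7.62, 7.76, 8.09 and 7.19 in exposed GD100 fetuses. The GD165 controls had 11.53, 9.43, 15.58 and 12.06 and the exposed GD165 fetuses had 9.62, 8.76 and 14.02. The lowest GD165 control was above the highest GD100 control, whereas exposed GD100 fetus 1 lay above exposed GD165 fetuses 3 and 4. The difference between the ages was 4.28 (SE 1.24, adjusted p = 0.0227) in controls and 2.31 (SE 1.35, adjusted p = 0.242) in exposed fetuses, and neither passed the threshold.

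MYH8, the perinatal heavy chain, was at 4.45, 5.09, 4.37, 4.43 and 4.58 in GD100 controls and at 8.87, 5.67, 5.77, 4.12 and 3.82 in exposed GD100 fetuses. Levels at GD165 were 10.54, 7.46, 13.57 and 10.69 in controls and 6.83, 7.21 and 13.83 in exposed fetuses. The probe was well above background in 3 of 5 animals of each GD100 group and in all GD165 animals. The controls did not overlap between the ages, and again exposed GD100 fetus 1 lay above exposed GD165 fetuses 3 and 4. Its age effect was 5.98 (SE 1.41, adjusted p = 0.00699) in controls, and it was lost when any 1 of 8 control animals was left out (4.98 and adjusted p = 0.0239 without GD165 control 5) and with normexp background correction (adjusted p = 0.0183). The exposed fetuses had 3.64 (SE 1.53, adjusted p = 0.105).

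Among the 9 fast genes 4 rose in controls, and 2 rose and 1 fell in exposed fetuses. MYH2, the heavy chain of fast oxidative fibres, was at 6.86, 5.90, 7.94, 6.40 and 8.63 in GD100 controls and at 7.37, 8.17, 7.06, 7.96 and 6.82 in exposed GD100 fetuses. In GD165 controls the levels were 11.73, 10.89, 11.83 and 11.52, and in exposed GD165 fetuses they were 10.01, 12.22 and 12.47. All 7 GD165 animals were above all 10 GD100 animals, and replicates 5 were close to the other GD165 animals. From GD100 to GD165 it differed by 4.35 (SE 0.56, adjusted p = 9.8e-05) in controls and 4.09 (SE 0.61, adjusted p = 0.00044) in exposed fetuses. Within a slide GD165 exceeded GD100 by 2.95 and 3.1 in controls and by 5.65 in exposed fetuses.

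MYH1, the heavy chain of fast glycolytic fibres, was at 1.5, 1.34, 1.69, 1.35 and 2.74 in GD100 controls and at 1.87, 1.55, 2.25, 1.65 and 1.22 in exposed GD100 fetuses. At GD165 it was at 5.50, 4.44, 5.05 and 5.12 in controls and at 3.44, 5.16 and 6.68 in exposed fetuses. The probe was not well above background on any GD100 array (0 of 10), so the levels there are bounds with no order. It was well above background in 4 of 4 GD165 controls and in exposed GD165 fetuses 4 and 5, but not in fetus 3. MYH1 was at least 2.53-fold higher at GD165 in controls (adjusted p = 0.000255). In exposed fetuses the same measure gave 2.64-fold (adjusted p = 0.000587), and 1.52-fold without exposed GD165 fetus 5. Both of these values take in fetus 3 at its background level, so they are not lower bounds. Without fetus 3 the bound was 4.68-fold. The measure sets the mean of the later group against the lowest signal that counted as above background on each earlier array. With another background correction (normexp, offset 50) MYH1 passed in neither (adjusted p = 0.0437 and 0.0549). The MYH4 probe, with which it has bases in common, was at 4.57, 4.16, 4.66, 3.52 and 4.64 in GD100 controls and 5.66, 5.04, 4.49 and 6.15 in GD165 controls, which overlapped, with 1.03 (SE 0.53, adjusted p = 0.198).

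**Figure D4:**
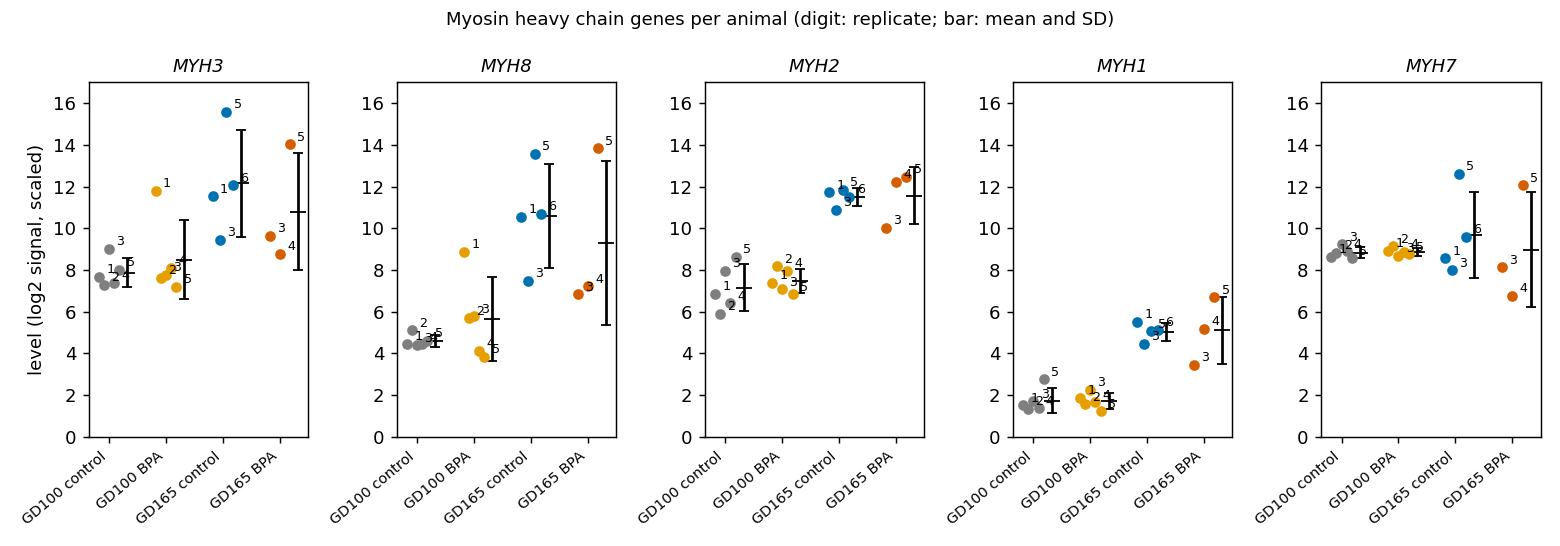
Log2 level of 5 myosin heavy chains in each fetus by group, with replicate numbers as digits and group means and standard deviations as bars; levels compare fetuses for 1 gene and not genes with each other. MYH2 separates the ages in every fetus, MYH1 is at background at GD100, and MYH3, MYH8 and MYH7 are highest in replicates 5 of the GD165 groups.

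TNNT3, the fast troponin T that anchors the troponin complex on tropomyosin, was at 11.39, 11.26, 11.45, 11.37 and 10.91 in GD100 controls and at 11.40, 11.17, 11.35, 11.31 and 11.49 in exposed GD100 fetuses. The GD165 controls had 12.39, 11.85, 14.09 and 13.00 and the exposed GD165 fetuses had 11.80, 11.96 and 13.24. The ages did not overlap, and replicates 5 were the highest. The age effect was 1.56 (SE 0.36, adjusted p = 0.00632) in controls, lost without 7 of the 9 controls in turn (1.14 and adjusted p = 0.013 without GD165 control 5), and 0.99 (SE 0.39, adjusted p = 0.0878) in exposed fetuses.

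ACTN3, the α-actinin that cross-links actin at the Z-disc of fast fibres, was at 10.76, 9.55, 10.46, 10.38 and 9.76 in GD100 controls and at 11.13, 10.49, 9.76, 10.17 and 10.28 in exposed GD100 fetuses. Levels at GD165 were 11.69, 11.15, 11.13 and 11.82 in controls and 11.06, 10.90 and 10.70 in exposed fetuses. The controls did not overlap, and in the exposed groups fetus 1 at GD100 was above every exposed GD165 fetus. Replicates 5 were not the highest here: GD165 control 5 was the lowest of its group and so was exposed GD165 fetus 5. The call in controls was lost without GD100 control 2 or 5 or GD165 control 1 or 6, with the compared groups alone, with array weights and with the slide as a fixed term or the replicate number as a block (adjusted p = 0.0108 to 0.0404). The difference between the ages was 1.27 (SE 0.28, adjusted p = 0.00449) in controls and 0.52 (SE 0.30, adjusted p = 0.236) in exposed fetuses.

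MYBPC2, the fast myosin-binding protein C that lies along the thick filament, went the other way. It was at 9.90, 10.61, 10.12, 9.95 and 9.47 in GD100 controls and at 11.15, 11.20, 10.70, 10.88 and 11.06 in exposed GD100 fetuses. In GD165 controls the levels were 8.76, 9.15, 9.41 and 9.72, and in exposed GD165 fetuses they were 8.47, 7.87 and 8.97. The exposed GD165 fetuses all lay below the exposed GD100 fetuses, and the controls overlapped, with GD165 control 6 above GD100 control 5. The age effect in exposed fetuses was −2.56 (SE 0.27, adjusted p = 5.5e-05), and in controls −0.75 (SE 0.25, adjusted p = 0.0408).

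The other 4 fast genes passed in neither age comparison. MYL1, the fast alkali light chain, was not well above background in any GD100 control (0 of 5) and ranged from 5.79 to 13.37 in GD165 controls. It was at least 34.9-fold higher at GD165 in controls (adjusted p = 0.0207), and at least 12.3-fold without GD165 control 5. In exposed fetuses it was at 6.89, 3.57, 3.28, 3.67 and 3.07 at GD100 and 6.43, 2.71 and 12.28 at GD165, which overlapped. TNNC2, the calcium-binding fast troponin C, differed by 1.49 in controls (adjusted p = 0.0406) and by 1.07 in exposed fetuses (adjusted p = 0.169). MYLPF, the fast regulatory light chain, lay between 15.73 and 16.83 in all animals, and TNNI2, the fast inhibitory troponin, differed by 0.73 (adjusted p = 0.0763) in controls.

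Of the 7 slow genes TNNC1 alone passed, and it passed in both comparisons. TNNC1, the troponin C of slow and cardiac fibres, was at 8.60, 8.50, 7.79, 8.16 and 8.18 in GD100 controls and at 8.33, 8.17, 7.90, 7.96 and 8.51 in exposed GD100 fetuses. At GD165 it was at 10.16, 9.49, 10.84 and 9.93 in controls and at 9.93, 9.31 and 10.70 in exposed fetuses. The ages did not overlap in either treatment. Its age effect was 1.86 (SE 0.28, adjusted p = 0.000329) in controls and 1.81 (SE 0.31, adjusted p = 0.00103) in exposed fetuses. Within a slide it was 1.71 and 1.98 in controls and 2.19 in exposed fetuses.

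MYH7, the slow heavy chain, was at 8.64, 8.81, 9.22, 8.89 and 8.56 in GD100 controls and at 8.90, 9.13, 8.67, 8.88 and 8.74 in exposed GD100 fetuses. The GD165 controls had 8.55, 7.98, 12.60 and 9.60 and the exposed GD165 fetuses had 8.12, 6.76 and 12.05. Both GD165 groups held animals above and below the GD100 range, with replicates 5 above it. The fold change was 0.85 (SE 0.92, adjusted p = 0.575) in controls and −0.12 without GD165 control 5, and it was 0.11 (SE 1.0, adjusted p = 0.952) in exposed fetuses and −1.42 without exposed GD165 fetus 5. MYL2, the slow regulatory light chain, had the largest value of the class in both comparisons, 2.65 (adjusted p = 0.119) and 2.84 (adjusted p = 0.121), with 9.99 and 9.86 in replicates 5. MYBPC1, the slow myosin-binding protein C, differed by 2.22 (adjusted p = 0.122) in controls and 1.02 in exposed fetuses, with 12.47 and 11.86 in replicates 5. MYL3 (−0.15 and −0.60), TNNT1 (−0.33 and 0.35) and TNNI1 (−0.55 and 1.29), a slow light chain and the slow troponins T and I, did not pass either.

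Among the 7 genes of the sarcomere and Z-disc outside the fast, slow and developmental classes, ACTA1 and ACTN2 rose in controls and TCAP fell. In exposed fetuses ACTN2 rose and TCAP fell. ACTA1, the skeletal muscle actin of the thin filament, was at 6.93, 6.35, 6.83, 5.99 and 5.70 in GD100 controls and at 9.90, 7.15, 6.95, 6.53 and 7.01 in exposed GD100 fetuses. Levels at GD165 were 10.75, 8.88, 15.28 and 11.10 in controls and 8.79, 7.63 and 13.51 in exposed fetuses. Its order of animals was like that of MYH3 and MYH8, with replicates 5 on top and exposed GD100 fetus 1 above exposed GD165 fetuses 3 and 4. From GD100 to GD165 it differed by 5.14 (SE 1.22, adjusted p = 0.00729) in controls. That call was lost without 8 of the 9 controls in turn, and the difference was 3.88 (adjusted p = 0.0199) without GD165 control 5. In exposed fetuses it was 2.47 (SE 1.33, adjusted p = 0.203).

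ACTN2, the α-actinin of all striated fibres, was at 5.14, 4.46, 5.17, 4.83 and 4.74 in GD100 controls and at 4.75, 4.59, 4.71, 5.35 and 4.56 in exposed GD100 fetuses. In GD165 controls the levels were 6.96, 6.34, 7.86 and 6.16, and in exposed GD165 fetuses they were 5.87, 6.85 and 6.61. All GD165 animals were above all GD100 animals. The age effect was 1.96 (SE 0.31, adjusted p = 0.000396) in controls and 1.65 (SE 0.33, adjusted p = 0.00323) in exposed fetuses, and the second did not pass without exposed GD165 fetus 4 (1.45, adjusted p = 0.0227) or 5 (1.57, adjusted p = 0.0168) or with normexp (adjusted p = 0.0366).

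TCAP, telethonin, which ties titin to the Z-disc, was at 13.12, 12.99, 13.10, 13.08 and 13.24 in GD100 controls and at 13.14, 13.27, 13.32, 13.00 and 13.52 in exposed GD100 fetuses. At GD165 it was at 12.54, 12.80, 12.73 and 12.68 in controls and at 12.83, 12.60 and 12.79 in exposed fetuses. It was lower in every GD165 animal than in any GD100 animal, by a small margin and with little spread. The difference between the ages was −0.42 (SE 0.10, adjusted p = 0.00749) in controls and −0.51 (SE 0.11, adjusted p = 0.00477) in exposed fetuses, and it missed the threshold without most single animals of the controls, GD165 control 5 among them (−0.43, adjusted p = 0.0135), and without exposed GD165 fetus 4 (−0.44, adjusted p = 0.0324) or 5 (−0.53, adjusted p = 0.0138). NEB, nebulin of the thin filament, differed by 3.81 in controls (adjusted p = 0.0408) and by 1.52 in exposed fetuses, with 2 of 5 animals of each GD100 group well above background. TTN, titin, the elastic filament of the sarcomere, differed by −0.46 (adjusted p = 0.0799) and −0.60 (adjusted p = 0.0393), and its other probe by −0.19 and −0.33. MYOZ1, a Z-disc protein that binds calcineurin, differed by 1.67 and 1.82, and MYOT, myotilin of the Z-disc, by 0.57 and −0.58.

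Among the 9 genes of calcium handling and the fibre membrane 1 rose in controls and 0 in exposed fetuses. SLN, sarcolipin, a small inhibitor of the calcium pump, was at 4.08, 4.43, 3.58, 2.17 and 2.26 in GD100 controls and at 7.62, 3.21, 2.50, 3.91 and 3.67 in exposed GD100 fetuses. The GD165 controls had 8.51, 6.37, 12.68 and 9.37 and the exposed GD165 fetuses had 6.51, 6.74 and 11.97. The probe was well above background in 1 of 5 GD100 controls and 2 of 5 exposed GD100 fetuses, so the differences below stand against levels that are mostly background. All GD165 controls were above all GD100 controls, and exposed GD100 fetus 1 lay above exposed GD165 fetuses 3 and 4. Its age effect was 5.93 (SE 1.34, adjusted p = 0.00541) in controls. It missed the threshold without 6 of the 9 controls in turn (4.78 and adjusted p = 0.0174 without GD165 control 5) and with normexp (adjusted p = 0.027). For exposed fetuses it was 4.22 (SE 1.46, adjusted p = 0.0517). The pump itself, ATP2A1, differed by 0.12 and −0.05 in the 2 comparisons.

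CAV3, the caveolin of muscle membrane, differed by 1.05 in controls (adjusted p = 0.0498) and 1.28 in exposed fetuses (adjusted p = 0.0306). RYR1, the calcium release channel, differed by −0.41 (adjusted p = 0.0213) and −0.33 (adjusted p = 0.0856). CACNA1S, the voltage sensor of the tubules, differed by 1.15 and 0.74. These 3 stayed short of the threshold in both comparisons, as did CASQ1, the calcium buffer of the reticulum (0.66 and 0.40), TRDN, triadin, which couples it to the channel (0.45 and 0.99), PVALB, parvalbumin (0.25 and −0.20), and CHRNA1, a subunit of the acetylcholine receptor (−0.27 and 0.37).

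None of the 6 energy genes (0 of 6) passed the threshold of limma's adjusted p in either comparison. At an unadjusted limma p under 0.05 there were 2 in controls and 0 in exposed fetuses, against 6687 and 6980 of all 20217 probes. CKM, muscle creatine kinase, was not well above background in any GD100 control (0 of 5), where it was at 2.30, 1.42, 2.18, 1.48 and 1.82, and it was at 7.47, 4.26, 12.40 and 8.25 in GD165 controls. The ages did not overlap in controls. CKM was at least 21.2-fold higher at GD165 in controls, at an adjusted p of 0.0112 that just missed the threshold, and at least 7.85-fold without GD165 control 5 or 51.5-fold without GD165 control 3. In exposed fetuses it was at 5.63, 1.98, 1.75, 1.96 and 1.99 at GD100 and at 5.41, 2.33 and 11.13 at GD165, with 3.63 (adjusted p = 0.153). AMPD1, muscle AMP deaminase, was well above background in 0 of 5 GD100 and 2 of 4 GD165 controls, the ages overlapped, and the difference did not pass (adjusted p = 0.278). MB, myoglobin, differed by 1.06 and 0.77, with 13.63 and 13.90 in replicates 5. PYGM, muscle glycogen phosphorylase (0.37 and 0.26), ENO3, muscle enolase (0.13 and 0.12), and PGAM2, muscle phosphoglycerate mutase (−0.14 and 0.21), had small values.

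None of the 4 myogenic factors (0 of 4) passed in either age comparison with limma. At an unadjusted limma p under 0.05 there were again 0, against 6687 of all 20217 probes in controls and 6980 in exposed fetuses. The 4 factors were highest in the animals in which the sarcomere genes were highest. MYOD1 was at 5.01, 5.95, 6.06, 4.79 and 5.18 in GD100 controls and at 7.20, 5.72, 4.80, 5.17 and 5.23 in exposed GD100 fetuses. Levels at GD165 were 5.82, 6.09, 8.48 and 6.53 in controls and 5.26, 5.55 and 8.92 in exposed fetuses. Replicates 5 of the GD165 groups were the highest, exposed GD100 fetus 1 came next, and the other animals overlapped between the ages. From GD100 to GD165 it differed by 1.33 (SE 0.72, adjusted p = 0.221) in controls and 0.95 (SE 0.79, adjusted p = 0.422) in exposed fetuses, and −0.22 in exposed fetuses without fetus 5.

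MYOG, which drives the fusion and differentiation of myoblasts, was at 5.93, 5.84, 6.10, 5.74 and 5.42 in GD100 controls and at 6.43, 5.95, 5.98, 5.80 and 5.70 in exposed GD100 fetuses. In GD165 controls the levels were 5.89, 6.17, 6.88 and 6.40, and in exposed GD165 fetuses they were 5.75, 5.77 and 7.36. Replicates 5 were again the highest and the rest overlapped. The age effect was 0.53 (SE 0.29, adjusted p = 0.227) in controls and 0.32 (SE 0.32, adjusted p = 0.516) in exposed fetuses, and −0.21 in exposed fetuses without fetus 5.

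MYF5, the earliest of the 4 in the embryo, was well above background in 2 of 17 animals, replicates 5 of the GD165 groups. It was at 1.62, 1.54, 5.01 and 3.09 in GD165 controls and at 1.34, 1.77 and 4.83 in exposed GD165 fetuses. At GD100 it was between 1.16 and 2.54, where the levels have no order because they lie at background. No difference between the ages passed (adjusted p = 0.216 and 0.423).

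MYF6, a factor of late differentiation, was at 6.73, 7.56, 7.12, 6.80 and 7.13 in GD100 controls and at 7.36, 7.21, 8.14, 7.65 and 7.07 in exposed GD100 fetuses. At GD165 it was at 7.10, 7.09, 8.32 and 7.18 in controls and at 6.56, 6.24 and 8.50 in exposed fetuses. Replicates 5 were the highest, and the other GD165 animals lay within or below the GD100 range. The difference between the ages was 0.36 (SE 0.40, adjusted p = 0.594) in controls and −0.39 (SE 0.43, adjusted p = 0.572) in exposed fetuses, where it was 0.04 without fetus 4. The score of the 4 factors was −0.57, −0.22, −0.12, −0.69 and −0.44 in GD100 controls and 0.53, −0.27, −0.17, −0.30 and −0.56 in exposed GD100 fetuses. The GD165 scores were −0.24, −0.13, 1.82 and 0.45 in controls and −0.63, −0.52 and 2.05 in exposed fetuses. Outside replicates 5 and GD165 control 6 the GD165 animals lay within the range of the GD100 controls.

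When both GD165 replicates 5 were left out, an alternative chosen after seeing the data, 12 genes rose in controls and 0 fell. In either direction 2276 of all 20217 probes passed there. Of the 12 genes 9 had risen with all animals. CKM, MYL1 and TNNC2 were added, and TCAP was lost. The median of the 44 genes was then 0.48. In exposed fetuses MYH1, MYH2, TNNC1 and ACTN2 rose again, MYBPC2 and TTN fell (1245 of all probes passed), and the median was 0.09. Leaving out exposed GD100 fetus 1 as well gave 13 genes that rose in controls, with MYH3 added, and medians of 0.48 and 0.19. Of all probes 2212 then passed in controls. Within a slide the median difference of the 44 genes between GD165 and GD100 was 0.35 in controls on slide C, 0.56 in controls on slide E and 1.96 in exposed fetuses on slide B, where the GD165 animal was replicate 5, and 31, 30 and 37 genes were above 0. The medians of all probes were −0.05, 0.0 and −0.01, and each value rests on 1 animal per age.

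BPA exposure was then compared with control at each age. At GD100 limma called 0 of 44 genes at the adjusted threshold (0% of all probes), and at an unadjusted p under 0.05 it called 1 (3.79% of all probes), MYBPC2. The median log2 difference was 0.12, with 28 of 44 genes above 0, and 0.01 without exposed GD100 fetus 1. At GD165 it called 0 genes (0%), and 3 at an unadjusted p under 0.05 (8.61% of all probes), which were MYBPC2, TNNI1 and PVALB. The median was −0.31, with 11 of 44 genes above 0, against −0.02 and 44.7% for all probes. Leaving out 1 animal moved that median between −0.81 and 0.07, and with the slide as a term it was 0.05. On slide E the 2 exposed GD165 fetuses each had 10 of 44 genes above the GD165 control of that slide, with medians of −0.49 and −0.39. The medians of all probes there were −0.05 and −0.02. Both differences were taken against the same single control, so they are not independent.

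MYBPC2 had an unadjusted p under 0.05 at both ages. It was higher in exposed than in control fetuses at GD100, by 0.99 (SE 0.23, limma adjusted p = 1.0). The GD165 fetuses had the opposite sign, with a log2 difference of −0.82 (SE 0.28, limma adjusted p = 0.468), and the groups overlapped by exposed fetus 5. The difference between these effects was −1.81 (SE 0.36, adjusted p = 0.366). TNNI1, well above background in 2 of 4 GD165 controls and 3 of 3 exposed fetuses, differed by 1.22 (SE 0.53, limma adjusted p = 0.553). PVALB differed at GD165 by −0.39 (limma adjusted p = 0.386).

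For the difference of the age effects between exposed and control fetuses limma called 0 of 44 genes (0%), and 3 at an unadjusted p under 0.05 (7.83% of all probes), again MYBPC2, TNNI1 and PVALB. For PVALB it was −0.45 (adjusted p = 0.518) and for TNNI1 1.84 (adjusted p = 0.562). For no gene of the 44 was the age effect thus shown to differ between exposed and control fetuses.

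Other genes of striated muscle were read from a list of 85, of which 75 had a probe. Of these 11 rose and 2 fell in controls (6.32% and 5.2% of all probes), with a median of 0.43. In exposed fetuses 8 rose and 1 fell (4.82% and 4.86% of all probes), with a median of 0.28. PHKG1, the catalytic subunit of muscle phosphorylase kinase, rose by 2.48 in controls and 2.15 in exposed fetuses (adjusted p = 2.69e-05 and 0.000234). HFE2, hemojuvelin, which muscle and liver express, rose by 2.07 in controls and 1.80 in exposed fetuses (adjusted p = 0.00183 and 0.00902). PDLIM3, a Z-disc protein that binds α-actinin, rose by 1.67 in controls and 1.88 in exposed fetuses (adjusted p = 0.0014 and 0.00146), and RYR3, a calcium release channel that smooth muscle also uses, by 1.37 in controls and 1.30 in exposed fetuses (adjusted p = 0.00113 and 0.0036). MYOM1, which links myosin at the M-band, rose by 0.79 in controls and 1.19 in exposed fetuses (adjusted p = 0.00153 and 0.000222). In these 5 genes both comparisons passed.

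FBXO32, a ubiquitin ligase of wasting muscle, changed by −0.70 in controls and −0.61 in exposed fetuses (adjusted p = 0.000807 and 0.00486). MYH13, the myosin of fast eye muscles, changed by −1.33 (SE 0.25, adjusted p = 0.0014) in controls and had a difference of −0.88 (SE 0.27, adjusted p = 0.0295) in exposed fetuses. ANKRD1, a stress-responsive titin partner, was not well above background on any GD100 array (0 of 10) and was at least 2.83-fold higher in GD165 controls (adjusted p = 0.00266). HSPB7, a small heat shock protein of muscle, rose in controls by 0.96 (SE 0.23, adjusted p = 0.00765), SLC2A4, the insulin-responsive glucose transporter, by 0.73 (SE 0.15, adjusted p = 0.00237), and COX7A1, a muscle subunit of cytochrome oxidase, by 0.58 (SE 0.14, adjusted p = 0.00865). SGCA, α-sarcoglycan of the fibre membrane, rose in exposed fetuses by 1.65 (SE 0.33, adjusted p = 0.00316) and had a difference of 1.2 (SE 0.30, adjusted p = 0.011) in controls. The list also holds genes that smooth or cardiac muscle express, such as ATP2A2.

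Genes of other cells were read in the same animals. For comparison, 6.32% of all probes rose and 5.2% fell in controls, and 4.82% rose and 4.86% fell in exposed fetuses. Fold changes above 0 were found for 50.5% of all probes in controls and 44.7% in exposed fetuses. An unadjusted limma p under 0.05 was found for 6687 of all 20217 probes in controls and 6980 in exposed fetuses. Of 16 matched genes of satellite cells and muscle progenitors 1 rose and 1 fell in controls, and 4 rose and 1 fell in exposed fetuses, where MSTN, myostatin, was among the 4 although its probe was not well above background on any exposed array (0 of 8). Of 17 smooth muscle genes 6 rose in controls and 4 in exposed fetuses, and all 17 had fold changes above 0 in both, with medians of 0.65 and 0.42. Of 14 cardiac genes 0 passed with limma in controls, where 4 had an unadjusted p under 0.05, and 1 fell in exposed fetuses. Squamous epithelium genes, of which 17 were matched, had 2 that rose in controls and 1 that fell in exposed fetuses. Of 7 adipocyte genes 1, FABP4, rose in controls and 0 passed in exposed fetuses, where 1 had an unadjusted limma p under 0.05.

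Of 5 tendon genes 0 passed with limma in controls, and 1, THBS4, rose in exposed fetuses. In controls 2 had an unadjusted limma p under 0.05, against 6687 of all 20217 probes. Of 9 uterine genes 4 rose in controls and 3 in exposed fetuses (6.32% and 4.82% of all probes).

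The animal highest in 4 of these lists was not the one highest in skeletal muscle genes. GD165 control 6 had the highest score of all 17 animals for squamous epithelium (2.41), adipocyte (2.34), tendon (1.10) and uterine genes (0.44). Its score for the 44 muscle genes was 0.72, at rank 3 of 17. GD165 control 5 had 0.67 for squamous epithelium (rank 2 of 17), 0.23 for adipocyte (rank 4), 0.13 for tendon (rank 4) and 0.05 for uterine genes (rank 7). Exposed GD165 fetus 5 had 0.11 for squamous epithelium (rank 3), 0.28 for adipocyte (rank 3), 0.64 for tendon (rank 2) and 0.32 for uterine genes (rank 4). These 2 animals were the highest of 17 for the 75 other striated muscle genes, with 0.73 and 0.62, and for the satellite cell and progenitor genes, with 0.29 and 0.21. For cardiac genes exposed GD100 fetus 1 was the highest (0.50) and GD165 control 5 came next (0.46), and for smooth muscle genes GD165 control 1 (0.77) and exposed GD165 fetus 4 (0.71) were the highest. The part of any of these lists in the levels of the 44 genes was not tested.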

How the data were processed

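Every uterus gave 1 Cy3-labeled sample on its own array. The authors extracted the signals with Agilent Feature Extraction 9.5 (named in the submitters' processing notes), and the deposited values are linear intensities after background subtraction, without scaling between arrays. The deposited table of all arrays held the same values as the scanner files in 711467 of 711467 comparisons.

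Processed signals were put on a log2 scale and averaged over the 2 spots per probe, without control spots and spots marked as outliers (0.025%). Arrays were then shifted to a common 75th percentile, 12.62, which is the mean of their own. No pseudocount was used. Probes were named from their array annotation (18772 of 20217). A linear model of the 4 groups, with no other term, was fitted over the 17 arrays with limma 3.58.1 (R 4.3.3) and moderated by eBayes, since the groups hold only 3 to 5 arrays, and two-sided p values were adjusted by Benjamini-Hochberg over all probes, with a threshold of 0.01. The error-weighted ANOVA of the study's methods was not repeated here. The scripts were tested on simulated data. Python 3.11.15 with numpy 2.4.6, pandas 2.3.3 and matplotlib 3.10.9 made tables and plots.

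The median signal-to-background ratio was 17.47 to 24.23 per array, and the number of arrays limits the precision. A probe that stayed at background throughout a group gives a lower bound for its fold where the other group is well above background. Each array held another fetus, so the p values measure the spread between animals. That spread was estimated over all 4 groups together, although it was wider for these genes at GD165 than at GD100. The p values of a comparison therefore also depend on animals outside it. The genes, the lists and the tests were chosen with earlier results of these data known. Values per animal are given for genes past the threshold in either comparison of the ages, for the myosin heavy chains and for the myogenic factors, other genes being given by ranges and counts. Up to 12 other striated muscle genes past the threshold are named, by size of change, and single genes of the other lists were named after their values were seen. The alternatives were normexp, quantile normalization, scaling by the median, a filter on dim probes, outlier spots kept, the compared groups only, a trend with a robust prior, array weights, a block for the slide (fixed or random) or for the replicate number, the mean over probes, a threshold of 0.05, scores from summed signals and leaving out each of 17 animals. Both settings that left out several animals were chosen after seeing the data.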

Additional observations from a re-analysis of the deposited data

Results flagged for a closer look

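In 23 of 156 sets of levels or scores tested, the highest or lowest animal of a group stood apart from the next one by more of the group's range than Dixon's 95% critical value allows. Chance alone marks about 1 in 20 groups, and the genes of a set are not independent. The values below are the gap to the next animal as a share of the group's range.

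Exposed GD100 fetus 1 was the high animal in 10 of them. The gap was 0.84 for MYL1, 0.72 for MYBPC1, 0.80 for MYH3, 0.82 for ACTA1, 0.72 for SLN, 0.73 for PVALB and 0.94 for CKM. For MYL1 and CKM the other 4 animals of the group were at background, and for SLN 2 of 5 were well above it. The gap was 0.77 for the score of all genes, 0.74 for developmental myosins and 0.84 for energy metabolism.

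GD165 control 5 was the high animal in 5, with 0.88 for TNNC2, 0.84 for CACNA1S, 0.89 for MB, 0.93 for MYF6 and 0.93 for the slow score. GD100 control 5 was the low animal in 5, with 0.75 for TNNC2, 0.90 for MYL3, 0.73 for NEB, 0.78 for RYR1 and 0.86 for the slow score, and the high one for MYH1, with 0.76. MYH1 was at background in all 5 GD100 controls, and NEB was well above background in 2 of 5, with control 5 among those that were not, so these 2 gaps rank background values that have no order. Exposed GD100 fetus 4 was high for ACTN2 (0.76) and GD165 control 3 for PGAM2 (0.89). The group of 3 exposed GD165 fetuses was too small for the rule, so fetus 5 of that group was not examined in this way.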

How the results depend on the processing

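The number of genes past the threshold with age in controls was 10, and it was 6 with the compared groups only, 6 with array weights, 2 with slide as a fixed block, 18 at an adjusted p of 0.05 and 4 to 13 without 1 animal. Of all 20217 probes 2328 passed in controls, and 1172, 2224 and 1233 with the compared groups, array weights and slide as a fixed block. Without 1 animal 1512 to 2370 of all probes passed in controls. The share of all probes at an adjusted p of 0.05 is not given here, so the 18 genes are not read against it. In exposed fetuses the number of genes was 6, and 3 with slide as a fixed block (1956 and 512 of all probes). It was 4 to 6 without 1 animal (994 to 2131 of all probes). The cause of these changes was not tested. For BPA against control at either age and for the difference of the age effects it was 0 in every setting run. With the replicate number as a block 4 genes passed in controls (ACTN2, MYH1, MYH2 and TNNC1, and 958 of all probes) and 6 in exposed fetuses (1444 of all probes). The numbers were not taken to pair the samples, since animals with the same number correlated in their deviations from the group means above 0.1 in 3 of 19 pairs, with a range from −0.17 to 0.16.

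With scores from summed linear signals, in which bright probes weigh most, the age difference in controls was 0.42 in place of 1.56 for all genes, 0.43 in place of 1.98 for fast and −0.18 in place of 0.94 for slow isoforms, and −0.05 in place of 1.19 for fast isoforms in exposed fetuses. Summed scores of the developmental myosins still separated the ages in controls (7.56 to 9.06 and 9.75 to 15.9). Among 17 genes given per animal, log2 fold changes kept direction and side of the threshold in 978 comparisons of a setting with the reported value, lost the call in 89, gained it in 3 and turned in 16. Leaving out an animal outside a comparison, the threshold of 0.05 and, for these genes, the mean over probes could not turn a fold change. The 978 therefore include comparisons whose direction was fixed in advance. MYH7 turned to −0.12 in controls without GD165 control 5 (alone or with the other animals left out; −0.12 to 1.42 without 1 animal). In exposed fetuses it turned to −0.69 with array weights, to −1.42 without fetus 5 or both replicates 5 (−1.42 to 1.22 without 1 animal) and to −1.41 without exposed GD100 fetus 1 as well. In exposed fetuses MYF5 turned to −0.003 with normexp and −0.16 without replicate 5 (−0.16 to 1.58 without 1 animal), MYOD1 to −0.22 (−0.22 to 1.61), MYOG to −0.21 (−0.21 to 0.59, and −0.10 with exposed GD100 fetus 1 left out too) and MYF6 to 0.04 without fetus 4 (−1.09 to 0.04). The median of all 44 genes without 1 animal was 0.48 to 1.32 in controls and 0.09 to 1.2 in exposed fetuses, 0.01 to 0.14 for BPA at GD100, −0.81 to 0.07 for BPA at GD165 and −0.74 to −0.02 for the difference of the age effects.

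Dim probes limit MYH1, MYL1, CKM, AMPD1 and MYF5, of which 1 or more groups gave a bound and no level. They also limit MYH8, SLN, NEB, TNNI1, MYL2, TRDN and CAV3, of which only some animals of a group were well above background.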
